A study of Rattus norvegicus with 6 samples.

Results

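The BCL2 family of apoptosis genes was described in rat (Rattus norvegicus) liver RNA from the TAE group and the HCC group, which have 3 libraries each. The TAE group underwent transarterial embolization, a catheter procedure that blocks the arteries feeding a liver tumour, and the HCC group was the untreated control of the same hepatocellular carcinoma study. Sampled material is called liver in the labels, and strain, age, the way tumours were raised, the embolic agent and the time after embolization are not given there, nor is it said whether tumour, surrounding liver or both were taken. Members were the genes of the deposited table whose symbol matches one of 10 listed names, and 8 of the 10 were found among its 32623 genes, each on 1 row: Bcl2l11, Bid, Pmaip1, Bax, Bak1, Bcl2a1, Bcl2l1 and Bcl2. Mcl1 and Bbc3, which complete the 10, were not analysed here. All 8 had counts in every library and passed the filter on low counts that left 14499 genes to test.

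BCL2 family proteins decide whether the outer mitochondrial membrane is opened, the step that frees cytochrome c and starts caspase activation. BAX and BAK1 form the pores, the anti-apoptotic proteins BCL-2, BCL-XL (gene Bcl2l1) and A1 (gene Bcl2a1) hold them back, and the BH3-only proteins BIM (Bcl2l11), BID and NOXA (Pmaip1) bind the guardians or activate the pore formers. In mouse liver, hepatocytes depend on BCL-XL for survival and BID links death receptors to mitochondria, while A1 is best known from cells of the blood lineages, where NF-kB drives it.

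Bcl2a1 and Bcl2l11 were the members that passed the test of TAE against HCC (edgeR adjusted p under 0.05), both as higher in TAE, and their start regions are shown for that reason. Each sequence is the 250 bases before the annotated gene start on the plus strand, from RefSeq on build GRCr8, at chr8:98596556-98596805 for Bcl2a1 and at chr3:135819792-135820041 for Bcl2l11. Capitals mark matches to the searched motifs other than the GC box.
Bcl2a1: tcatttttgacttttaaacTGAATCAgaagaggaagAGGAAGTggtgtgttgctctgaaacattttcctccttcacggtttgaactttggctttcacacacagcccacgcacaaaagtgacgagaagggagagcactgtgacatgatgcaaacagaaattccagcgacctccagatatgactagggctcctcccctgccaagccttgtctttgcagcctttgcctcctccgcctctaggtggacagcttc
Bcl2l11: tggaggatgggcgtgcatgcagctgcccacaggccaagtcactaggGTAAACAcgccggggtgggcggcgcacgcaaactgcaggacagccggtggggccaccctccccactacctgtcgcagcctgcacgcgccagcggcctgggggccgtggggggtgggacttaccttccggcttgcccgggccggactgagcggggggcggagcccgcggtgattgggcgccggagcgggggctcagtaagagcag
Motifs were searched on both strands as FOXO (TGTTTAC), AP-1 (TGANTCA), C/EBP (TTGCNNAA), ETS (AGGAAGT), CRE (TGACGTCA) and the GC box (GGGCGG), and none of the matches in these regions overlapped another. In the Bcl2a1 region an AP-1 match lies at -231 to -225 and an ETS match at -214 to -208 from the start, motifs that 6.34% and 7.08% of 33469 rat start regions of the same length hold. The Bcl2l11 region holds a FOXO match at -204 to -198, a motif found in 3.21% of all regions, and GC boxes at -188 to -183 and -51 to -46, a motif found in 30.5%. With 72.0% G and C the Bcl2l11 region is richer in these bases than the Bcl2a1 region at 48.8%, and the median over all regions was 51.2%. Start regions were listed for 7 of the 8 members, all except Bax, and among the other 5 an ETS match was found for Bak1 and Bcl2, a C/EBP match for Bid and a GC box for Bak1, Bid and Pmaip1 (1, 3 and 1 matches), and no match for Bcl2l1. These matches describe letters only, and no binding was measured.

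Libraries held 13448286 to 16604067 counts. TAE libraries resembled one another less (Pearson r of log2 CPM across genes 0.935 to 0.969) than HCC libraries did (0.984 to 0.991), and TAE replicate 2 was as close to the HCC libraries (0.967 to 0.969) as to TAE replicate 1 (0.969). CPM is the count scaled to the library total, here with TMM factors, and genes are not independent replicates. All 10 hepatocyte markers were detected in every library. Their summed FPKM (counts adjusted for exon length and for the library total) was 9772 to 27961 in TAE and 22279 to 27418 in HCC. None of the 10 passed, and the log2 change was below 0 for 9 of them (median -0.56). Ttr and Tat were lower in every TAE library than in any HCC library. Summed markers of leukocytes, fibroblasts and bile duct cells differed as well, and their values are given below.

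Anti-apoptotic Bcl2a1 was the most abundant member in all 6 libraries and had the largest log2 change of the 8. Bcl2a1 (ENSRNOG00000047606, chromosome 8, 96551245 to 96559483 in the deposited table) stood at 173, 183 and 219 FPKM in TAE replicates 1 to 3, against 86.7, 103 and 93.4 FPKM in HCC replicates 1 to 3. Every TAE library lay above every HCC library. The means were 192 ± 23.8 FPKM in TAE and 94.4 ± 8.24 FPKM in HCC (SD, n = 3 each), 2.03-fold higher in TAE, with a log2 change of 0.99 ± 0.19 (SE, edgeR adjusted p = 0.0463). In mouse this gene exists as several near-identical copies, and how the authors counted reads that match more than 1 place is not given in the sources used here. Coordinates of the deposited table reach 282724300 on chromosome 1, so their build is not settled, and they must not be read against GRCr8.

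Bcl2l11, which encodes the BH3-only protein BIM, rose as well, at a much lower level. Bcl2l11 (ENSRNOG00000016551, chromosome 3, 120726906 to 120764192) stood at 11.8, 10.6 and 10.3 FPKM in TAE replicates 1 to 3, against 7.23, 6.26 and 6.36 FPKM in HCC replicates 1 to 3. Its groups did not overlap either, and its SD was 7.30% of the mean FPKM in TAE and 8.06% in HCC. On the TMM-scaled log2 CPM scale it ranged more widely in TAE (0.48 to 0.77 relative to the HCC mean) than in HCC (-0.08 to 0.11). The means were 10.9 ± 0.794 FPKM in TAE and 6.62 ± 0.534 FPKM in HCC (SD, n = 3 each), 1.65-fold higher in TAE, with a log2 change of 0.67 ± 0.13 (SE, edgeR adjusted p = 0.0487). This rise was already seen when the member list was drawn up, so its call is not independent evidence.

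**Figure D1:**
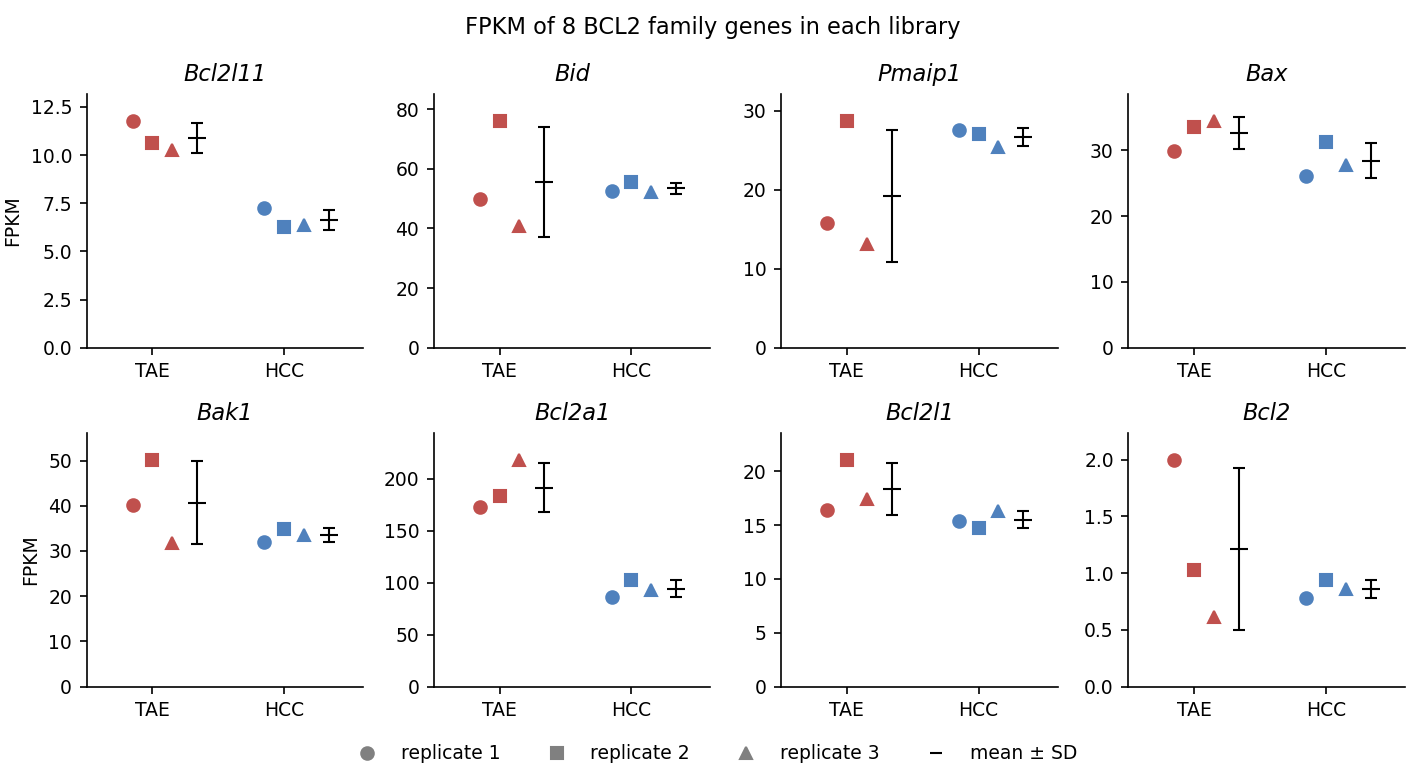
FPKM of each of the 8 members (y axes from 0) in the TAE and HCC libraries, with marker shapes for replicates 1 to 3 and a bar for the mean ± SD of 3 libraries. Bcl2a1 (173 to 219 FPKM in TAE, 86.7 to 103 in HCC) and Bcl2l11 (10.3 to 11.8 in TAE, 6.26 to 7.23 in HCC) separate the groups, while Bid and Pmaip1 are high in TAE replicate 2 alone among the TAE libraries.

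Across all genes tested, 3.01% passed an adjusted p of 0.05, 2.70% as higher in TAE and 0.310% as lower. Of the 8 members 2 rose, none fell and 6 did not pass. The median log2 change was 0.20 over the members, against -0.03 over all genes tested. FPKM ranges of the groups did not overlap for 3 members, each higher in TAE (Bcl2a1, Bcl2l11 and Bcl2l1), beside 21.9% of all genes tested that were higher in TAE without overlap, 5.54% that were lower and 27.5% in either direction.

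Both adjusted p values lay close to the threshold, and the number of calls over all genes turned on single libraries. With edgeR, Bcl2a1 and Bcl2l11 passed without TAE replicate 2 (adjusted p = 0.0111 and 0.00831) and without TAE replicate 3 (0.0154 and 0.0321), and neither passed without TAE replicate 1 or any 1 HCC replicate (0.145 to 0.224 for Bcl2a1 and 0.160 to 0.228 for Bcl2l11). In those 4 fits edgeR called 0 or 1 of all genes tested, although an unadjusted p under 0.05 was reached by 1997 to 2243 genes and calls by DESeq2 numbered 713 to 1034. The sizes moved little: the log2 change was 0.79 to 1.09 for Bcl2a1 and 0.63 to 0.76 for Bcl2l11 over the 6 edgeR fits. With DESeq2, Bcl2a1 passed in each of the 6 fits that left out 1 library (adjusted p at most 0.0234). Bcl2l11 passed in 3 of these 6, and missed without TAE replicate 1 (0.0710), HCC replicate 2 (0.0612) and HCC replicate 3 (0.0665).

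**Figure D2:**
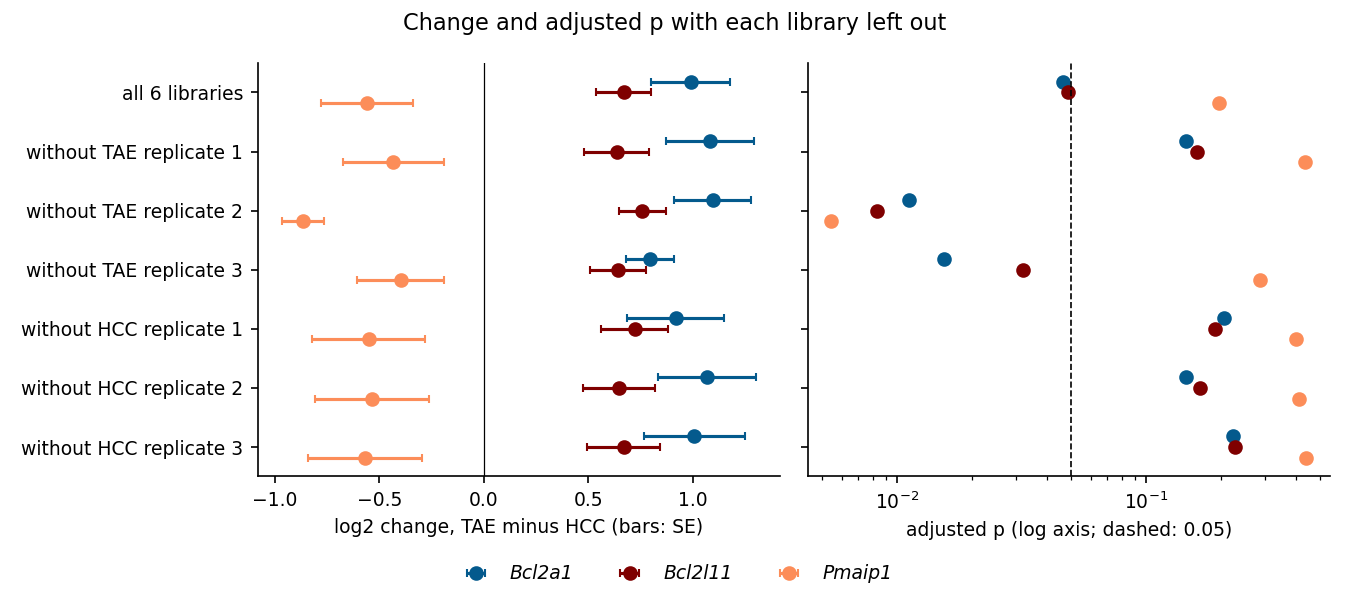
Log2 change of TAE minus HCC with its SE (left) and edgeR adjusted p on a log axis (right) for Bcl2a1, Bcl2l11 and Pmaip1, in the fit of all 6 libraries and with each library left out. Changes of Bcl2a1 and Bcl2l11 stay positive throughout, whereas the adjusted p of Pmaip1 falls below 0.05 only without TAE replicate 2 (0.00544).

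Summed FPKM of each leukocyte, fibroblast and bile duct marker list was higher in every TAE library than in any HCC library, and in bulk tissue more cells of a type and more RNA per cell cannot be told apart. Of 11 macrophage markers, 4 rose (Cd68, Csf1r, Lyz2 and Msr1) and 7 did not pass (median log2 change 1.18), and the summed FPKM was 3891 to 5641 in TAE and 1479 to 1788 in HCC. Without the lysozyme gene Lyz2 it was 1101 to 2288 in TAE and 736 to 865 in HCC. For 3 of the markers the log2 change was below 0: Clec4f, a receptor of Kupffer cells, at 56.0 ± 29.5 FPKM in TAE and 73.4 ± 12.9 FPKM in HCC, Cd163, a scavenger receptor, at 98.5 ± 30.3 FPKM in TAE and 105 ± 19.7 FPKM in HCC, and Marco at 35.6 ± 38.9 FPKM in TAE and 38.7 ± 9.75 FPKM in HCC (SD, n = 3 each). Of 8 neutrophil markers, 3 rose (Ncf1, Ncf4 and Itgam, which macrophages express as well). Their list had a median of 1.47 and sums of 154 to 271 in TAE and 70.1 to 105 in HCC. Beyond these 3, only S100a8 was higher in FPKM in every TAE library than in any HCC library, and it did not pass (edgeR adjusted p = 0.132). Its TAE replicate 2 (16.2 FPKM) lay close to HCC replicate 2 (14.4 FPKM), on a scale without TMM factors. The log2 change of Cxcr2 was below 0 (-0.10). None of 8 T and NK cell markers passed (median 0.35, sums of 268 to 444 in TAE and 143 to 206 in HCC), and without Cd4 and Cd8a the other 6 summed to 55.3, 92.4 and 145 in TAE replicates 1 to 3, against 62.0, 91.4 and 78.6 in HCC replicates 1 to 3, with overlap. The 5 markers of B and plasma cells held no gene that passed (median 0.85, sums of 35.1 to 133 in TAE and 13.8 to 20.8 in HCC), nor did the 3 mast cell markers (median 2.09, sums of 20.5 to 47.8 in TAE and 5.90 to 8.38 in HCC). Of 6 fibroblast and stellate cell markers, 1 rose (Lum, a matrix proteoglycan; edgeR adjusted p = 0.0487), with a median of 1.78 and sums of 1109 to 2957 in TAE and 430 to 689 in HCC. Of 5 cholangiocyte markers, 1 rose (Cftr, the chloride channel of bile duct epithelium, edgeR adjusted p = 0.0417). Cftr was low, at 0.20 to 0.41 FPKM in HCC and 1.05 to 1.99 FPKM in TAE. The log2 change was above 0 for 4 of the 5 and below 0 for Krt7 (-0.22), with a median of 0.83. Sums were 18.6 to 42.6 in TAE and 14.0 to 18.1 in HCC, so TAE replicate 3 (18.6) barely cleared HCC replicate 2 (18.1). None of 6 endothelial markers passed (median 0.37), and their sums overlapped (49.6 to 74.1 in TAE, 43.5 to 52.4 in HCC). No marker of these lists was at 0 in any library. The part of these cells in the rises of Bcl2a1 and Bcl2l11 was not tested.

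Set against Ptprc, the common leukocyte antigen CD45, neither gene was higher in TAE beyond the spread. Ptprc, chosen for this after values had been seen, stood at 75.9, 63.7 and 79.9 FPKM in TAE replicates 1 to 3, against 44.5, 39.0 and 34.3 FPKM in HCC replicates 1 to 3. Ptprc itself did not pass (edgeR adjusted p = 0.0606). The FPKM ratio of Bcl2a1 to Ptprc was 2.28, 2.87 and 2.74 in the TAE libraries, against 1.95, 2.65 and 2.72 in the HCC libraries, and these ranges overlapped. For Bcl2l11 the ratio was 0.155, 0.167 and 0.128 in the TAE libraries, against 0.163, 0.161 and 0.185 in the HCC libraries, again with overlap. Against single macrophage markers, compared after values had been seen, the direction depended on the marker. Of the 11 ratios of Bcl2a1, 2 were higher in every TAE library than in any HCC library (to Clec4f and Cd163), 2 were lower (to Cd68 and Lyz2) and 7 overlapped. Of the 11 ratios of Bcl2l11, 2 were higher (to Clec4f and Cd163), 4 were lower (to Cd68, Csf1r, Lyz2 and Msr1) and 5 overlapped. Bcl2a1 to Cd68, for example, was 0.623 to 0.998 in TAE and 1.13 to 1.28 in HCC, while Bcl2a1 to Cd163 was 1.68 to 2.61 in TAE and 0.809 to 1.03 in HCC. These ratios are descriptions, since an exact test of 3 against 3 libraries cannot give a p below 0.10.

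The genes whose log2 CPM followed Bcl2a1 most closely over the 6 libraries were Fcgr3a, a receptor for IgG (Pearson r = 0.999), Hcls1, an actin-binding adaptor of blood cells (0.997), and Rac2, a small GTPase of blood cells (0.997). Those closest to Bcl2l11 were Ppp3cc, a catalytic subunit of calcineurin, the solute carrier gene Slc49a3 and the metalloprotease gene Amz1 (0.998, 0.998 and 0.997). These coefficients span a step between 2 groups of 3 libraries and are descriptions. Of these genes, Amz1 was at 3.88 ± 0.575 FPKM in TAE and 1.34 ± 0.129 FPKM in HCC, and Fcgr3a at 216 ± 61.5 FPKM in TAE and 72.6 ± 11.1 FPKM in HCC (SD, n = 3 each). Both passed, as did Slc49a3 and Hcls1, whereas Ppp3cc and Rac2 did not (edgeR adjusted p = 0.0593 and 0.0513).

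The other anti-apoptotic members, Bcl2l1 and Bcl2, did not pass. Bcl2l1, the gene of BCL-XL, stood at 16.4, 21.1 and 17.5 FPKM in TAE replicates 1 to 3, against 15.4, 14.8 and 16.3 FPKM in HCC replicates 1 to 3. TAE replicate 1 (16.44 FPKM) barely cleared HCC replicate 3 (16.32 FPKM), and on the TMM-scaled log2 CPM scale the order turned, with TAE replicate 1 at -0.01 and HCC replicate 3 at 0.10 relative to the HCC mean. The log2 change was 0.19 ± 0.13 (SE, edgeR adjusted p = 0.398). Bcl2, the founding member of the family, was the least abundant, at 2.00, 1.03 and 0.61 FPKM in TAE replicates 1 to 3, against 0.78, 0.94 and 0.86 FPKM in HCC replicates 1 to 3. These values rest on 60, 35 and 21 counts in TAE and 23, 26 and 25 counts in HCC. TAE replicate 1 was above all HCC libraries and TAE replicate 3 below them, and the log2 change of 0.42 ± 0.43 (SE, edgeR adjusted p = 0.562) turned to -0.12 without TAE replicate 1.

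NOXA and BID, the other BH3-only proteins, differed among the TAE libraries more than between the groups. Pmaip1, whose product NOXA binds MCL-1 and A1, stood at 15.7, 28.7 and 13.1 FPKM in TAE replicates 1 to 3, against 27.5, 27.1 and 25.4 FPKM in HCC replicates 1 to 3. TAE replicates 1 and 3 lay below every HCC library and TAE replicate 2 above them all in FPKM, while on the TMM-scaled log2 CPM scale TAE replicate 2 was at -0.09 relative to the HCC mean, below all HCC libraries (-0.05 to 0.03). The log2 change of -0.56 ± 0.22 (SE) did not pass (edgeR adjusted p = 0.196), but without TAE replicate 2 it was -0.87 and passed (edgeR adjusted p = 0.00544, DESeq2 9.59e-08). In that fit 24.2% of all genes tested passed, against 3.01% with all libraries.

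Bid, cut by caspase-8 to carry a death receptor signal to mitochondria, stood at 49.9, 76.1 and 40.7 FPKM in TAE replicates 1 to 3, against 52.6, 55.4 and 52.2 FPKM in HCC replicates 1 to 3. TAE replicate 2 was above all HCC libraries and TAE replicates 1 and 3 below them, so that the log2 change of -0.02 ± 0.17 (SE, edgeR adjusted p = 0.947) averages unlike libraries, and its sign depended on the scaling. Summed FPKM of 4 proliferation markers (Mki67, Top2a, Ccnb1 and Cdk1) was likewise highest in TAE replicate 2, at 231, 319 and 90.1 in TAE replicates 1 to 3, against 285 to 313 in HCC. None of these 4 markers passed, and the log2 change of each was below 0 (median -0.59). The hepatocyte sum was lowest in TAE replicate 2, at 12850, 9772 and 27961 in TAE replicates 1 to 3. Their part in the values of Pmaip1 and Bid was not tested.

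The pore formers showed small differences that did not pass. Bax stood at 29.8, 33.5 and 34.5 FPKM in TAE replicates 1 to 3, against 26.1, 31.3 and 27.8 FPKM in HCC replicates 1 to 3, with a log2 change of 0.16 ± 0.16 (SE, edgeR adjusted p = 0.557). Its groups overlapped, since HCC replicate 2 exceeded TAE replicate 1. Bak1 stood at 40.2, 50.2 and 31.8 FPKM in TAE replicates 1 to 3, against 32.0, 34.9 and 33.6 FPKM in HCC replicates 1 to 3, with a log2 change of 0.21 ± 0.13 (SE, edgeR adjusted p = 0.347). TAE replicate 2 was again the highest library, and TAE replicate 3 the lowest of all 6 in FPKM, while on the TMM-scaled log2 CPM scale TAE replicate 3 stood at 0.061 relative to the HCC mean, just above all HCC libraries (-0.086 to 0.057).

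**Figure D3:**
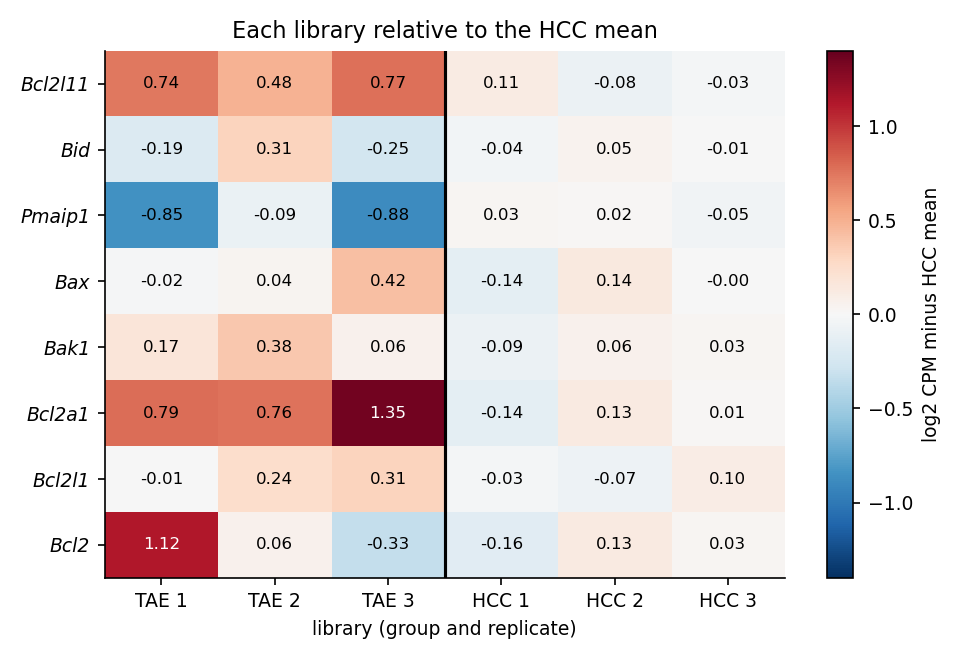
Log2 CPM (TMM-scaled) of each member in each library minus the mean of the HCC libraries, with TAE libraries left of the line and HCC libraries right of it. Bcl2a1 and Bcl2l11 are positive in all TAE libraries (0.76 to 1.35 and 0.48 to 0.77), whereas Pmaip1 is at -0.85 and -0.88 in TAE replicates 1 and 3 and -0.09 in TAE replicate 2.

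In FPKM, embolized libraries varied more than HCC libraries for 6 of the 8 members, and for 82.4% of all genes tested, so the count says nothing particular to the family. FPKM carries no TMM factors, and these ranged from 0.893 to 1.13 in TAE and from 0.966 to 0.995 in HCC. The part of this scaling in both shares was not tested. The SD was 7.30% to 58.8% of the mean FPKM in TAE and 3.27% to 9.36% in HCC. It was widest in TAE for Bcl2 (58.8%), Pmaip1 (43.5%) and Bid (33.0%). In FPKM, Bcl2l11 and Bax stayed at 7.30% and 7.55% in TAE, each below its own value in HCC (8.06% and 9.36%). On the TMM-scaled log2 CPM scale this order turned, and both genes ranged more widely in TAE. Relative to the HCC mean, Bax was at -0.02 to 0.42 in TAE and -0.14 to 0.14 in HCC. Bcl2l11 was at 0.48 to 0.77 in TAE and -0.08 to 0.11 in HCC.

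By level per exon length, the order of the members by group mean was alike in both groups. In TAE, Bcl2a1 was followed by Bid (55.6 ± 18.4 FPKM), Bak1 (40.7 ± 9.22), Bax (32.6 ± 2.46), Pmaip1 (19.2 ± 8.35), Bcl2l1 (18.3 ± 2.43), Bcl2l11 and Bcl2 (mean ± SD, n = 3). In HCC the same order held, with Bid at 53.4 ± 1.75 FPKM, Bak1 at 33.5 ± 1.48, Bax at 28.4 ± 2.66, Pmaip1 at 26.7 ± 1.13 and Bcl2l1 at 15.5 ± 0.788 (mean ± SD, n = 3). Ranges of neighbours overlapped in TAE for Bid and Bak1, for Bak1 and Bax and for Pmaip1 and Bcl2l1, and in HCC for Bax and Pmaip1 only. Bcl2l1 exceeded Pmaip1 in TAE replicate 1 (16.4 against 15.7 FPKM) and TAE replicate 3 (17.5 against 13.1 FPKM), and in no HCC library.

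The make-up of the measured family shifted towards Bcl2a1. The 8 members summed to 339, 404 and 367 FPKM in TAE replicates 1 to 3, against 248, 274 and 256 FPKM in HCC replicates 1 to 3. Bcl2a1 made up 51.1%, 45.3% and 59.6% of these sums in TAE, against 34.9%, 37.7% and 36.5% in HCC. The 5 pro-apoptotic members together stood at 147, 199 and 130 FPKM in TAE, against 145, 155 and 145 FPKM in HCC, and these ranges overlapped. Mcl1 and Bbc3 are outside these sums.

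**Figure D4:**
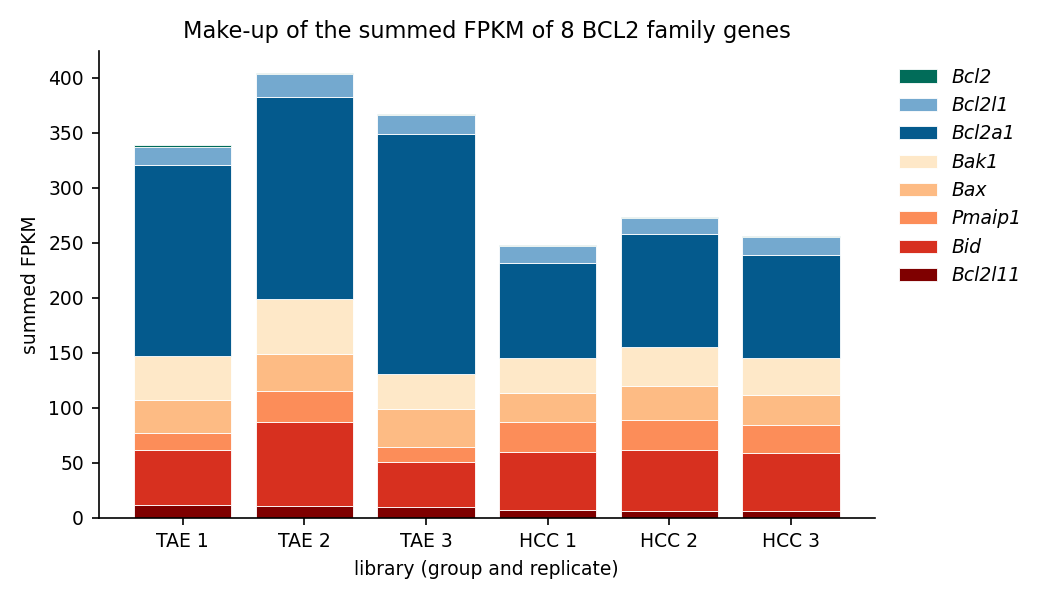
Stacked bars (y axis from 0) of the FPKM of the 8 members in each library, TAE libraries left of HCC libraries, with anti-apoptotic genes in blue and green and pro-apoptotic genes in reds. The dark blue share of Bcl2a1 is 45.3% to 59.6% in TAE and 34.9% to 37.7% in HCC.

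Ratios within a library do not depend on how libraries are scaled. Bcl2l11 to Bcl2l1 was 0.717, 0.504 and 0.588 in TAE replicates 1 to 3, against 0.469, 0.424 and 0.390 in HCC replicates 1 to 3, without overlap and with a mean log2 difference of 0.48. Bcl2a1 to Bcl2l1, a ratio added after values had been seen, was 10.5, 8.70 and 12.5 in the TAE libraries, against 5.63, 6.99 and 5.72 in the HCC libraries, also without overlap. Bax to Bcl2 was 14.9, 32.5 and 56.5 in the TAE libraries, against 33.4, 33.3 and 32.3 in the HCC libraries. The TAE values of this last ratio lay on both sides of a narrow HCC range, and Bcl2, below the line, rests on 21 to 60 counts. Bcl2l11 to Bcl2 was 5.89, 10.3 and 16.8 in the TAE libraries, against 9.27, 6.66 and 7.40 in the HCC libraries, with overlap.

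Among 11 further family genes, 10 were in the table and 7 could be tested, of which 1 rose and none fell, with a median log2 change of 0.38. Bcl2l14 (BCL-G) stood at 7.86, 6.86 and 8.60 FPKM in TAE replicates 1 to 3, against 3.59, 2.75 and 2.66 FPKM in HCC replicates 1 to 3, with a log2 change of 1.34 ± 0.25 (SE, edgeR adjusted p = 0.0440). No TAE library overlapped the HCC libraries. With edgeR it passed without TAE replicate 2 or 3 and was lost without TAE replicate 1 or any 1 HCC replicate, while with DESeq2 it passed in each fit that left out 1 library. In FPKM, which carries no TMM factors, the BH3-only genes Bmf and Bad were higher in every TAE library, as were 21.9% of all genes tested. Neither passed (edgeR adjusted p = 0.174 and 0.139). Bmf stood at 13.0, 7.61 and 10.3 FPKM in TAE, against 6.11, 6.17 and 6.62 FPKM in HCC. Bad stood at 28.6, 32.9 and 24.9 FPKM in TAE, against 20.6, 22.4 and 20.6 FPKM in HCC. Bcl2l12 stood at 6.30 to 8.45 FPKM in TAE and 4.39 to 5.93 FPKM in HCC. The BCL-W gene Bcl2l2 (15.6 to 21.4 FPKM in TAE, 18.2 to 20.5 in HCC), the BAX-like gene Bok (7.36 to 20.5 in TAE, 13.9 to 14.8 in HCC) and the mitophagy receptor gene Bcl2l13 (12.7 to 24.6 in TAE, 21.7 to 24.4 in HCC) overlapped between groups. Bik, Bcl2l15 and Bcl2l10 had too few counts to test.

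**Figure D5:**
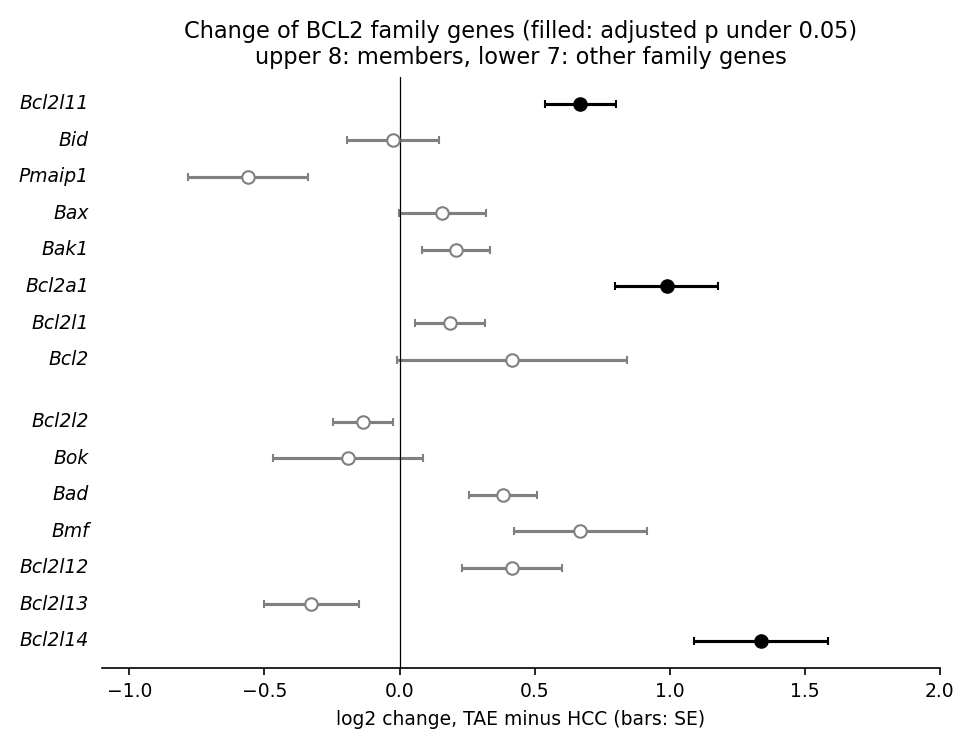
Log2 change of TAE minus HCC with its SE for the 8 members (upper rows) and 7 other family genes (lower rows), where filled points passed an edgeR adjusted p of 0.05. Bcl2l14 (1.34), Bcl2a1 (0.99) and Bcl2l11 (0.67) are the filled points.

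No gene of the neighbouring steps of the pathway passed in the edgeR fit of all 6 libraries. Pathway lists and further family together held 66 tested genes, of which 1 passed (Bcl2l14, 1.52%), beside 3.01% of all genes tested. Of 9 genes of the apoptosome and its caspases, none passed (median log2 change 0.07). Aifm1, a mitochondrial flavoprotein released in cell death, was at 38.0 ± 9.12 FPKM in TAE and 51.9 ± 5.42 FPKM in HCC, and Casp9, the initiator caspase of the apoptosome, at 6.64 ± 0.396 FPKM in TAE and 4.53 ± 0.361 FPKM in HCC (edgeR adjusted p = 0.0967 and 0.145). None of 5 inhibitor of apoptosis genes passed (median -0.24), the lowest p being that of Birc2 (27.7 ± 5.36 FPKM in TAE, 18.3 ± 2.08 in HCC), followed by Birc3. None of 9 death receptor genes passed (median 0.21), with Casp8, the protease that cuts BID, at 16.4 ± 1.80 FPKM in TAE and 11.5 ± 1.11 FPKM in HCC (edgeR adjusted p = 0.113), and Tnfsf10, the TRAIL gene, next in order of p.

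Regulators upstream of the members did not pass in that fit either. Of 10 genes of p53 and its targets outside the members none passed (median 0.37). Ccng1, a cyclin that p53 induces, stood at 53.4, 58.3 and 71.7 FPKM in TAE replicates 1 to 3, against 39.0, 35.2 and 33.3 FPKM in HCC replicates 1 to 3 (edgeR adjusted p = 0.0918), and Mdm2, the ubiquitin ligase of p53, at 30.1, 36.4 and 45.2 FPKM in TAE, against 23.7, 24.0 and 22.4 FPKM in HCC (0.145). Groups did not overlap for either gene. Of 8 regulators of BIM none passed (median -0.02), with Jun, a subunit of AP-1, and Spry2, an inhibitor of growth factor signalling, lowest in p (edgeR adjusted p = 0.195 and 0.276). Of 8 NF-kB pathway genes none passed (median 0.13), with Relb at 11.3 ± 0.639 FPKM in TAE and 7.64 ± 0.282 FPKM in HCC, and Nfkb1 at 31.3 ± 3.89 FPKM in TAE and 23.1 ± 1.67 FPKM in HCC (edgeR adjusted p = 0.103 and 0.156). Neither the 5 genes of MCL-1 turnover (median -0.15, Trib1 and Huwe1 lowest in p) nor the 5 mitochondrial partners of BAX, BAK1 and BID (median 0.03, Mtch2 and Vdac1 lowest in p) held a gene that passed. With all 6 libraries, Ccng1 passed under total count scaling, DESeq2, both limma fits and sample weights, and Aifm1, Casp8 and Relb under DESeq2 and sample weights. Of the 66 tested genes of these lists and of the further family, 5 passed with DESeq2 (7.58%), where 12.2% of all genes tested did. Without TAE replicate 2, 10 of the 66 passed with edgeR (15.2%), where 24.2% of all genes tested did, among them Bcl2l14, Aifm1, Casp8, Ccng1, Relb and Nfkb1.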

How the data were processed

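Poly(A)-selected, strand-specific RNA libraries of rat liver were sequenced as paired ends, per the labels' protocols, and grouped by title. The authors deposited 1 table that gives, per the file headers, raw read counts and FPKM for each gene in each library, and 100% of the deposited FPKM values were recovered within 0.01 from the count, the exonic size and the library total. The submitters' processing notes name build mRatBN 7.2, and no aligner, counting tool or strand setting is named in the labels.

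Deposited counts were filtered with filterByExpr, scaled by TMM and tested two-sided as TAE minus HCC with the quasi-likelihood test of edgeR (4.0.16, in R 4.3.3). P-values of 14499 genes were adjusted by Benjamini and Hochberg's method, and genes under 0.05 passed. Standard errors are the absolute log2 change divided by the square root of F. Alternatives were other scalings and filters, DESeq2 (1.42.0), limma (3.58.1) on log2(FPKM + 1) and log2(FPKM + 0.1), voom with sample weights, a replicate block and leaving out each library, alone and, chosen after seeing the data, with DESeq2. Scripts were tested on simulated counts.

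Members and gene lists were chosen with earlier results of these data known. Of 141 entries in the other lists, 136 matched by symbol. Named genes were all members and further family genes, and from each pathway list those that passed or else the pair with the lowest p, while cell type marker lists were described by counts, medians and summed FPKM. Other genes were named after their values were seen. The most similar genes were the 3 with the highest r, among genes with a mean FPKM of at least 1 and a symbol that is no locus name. The labels do not say that replicates came from separate animals, and p-values thus reflect only how these libraries spread, which may be technical. Replicates were no repeat deposits (chi-square per degree of freedom between pairs at least 5.80). Library totals limit precision most for genes with few counts.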

Additional observations from a re-analysis of the deposited data

How the results depend on the processing

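Over all genes, 437 passed, and the count was 720 with upper quartile scaling, 1036 with total count scaling, 829 without a filter on low counts, 1763 with DESeq2, 805 and 877 with limma on log2(FPKM + 1) and log2(FPKM + 0.1), and 5975 with sample weights. Without 1 library it was 0 to 3569 with edgeR (10 list genes at most) and, in a check chosen after seeing the data, 769, 4234 and 2118 with DESeq2 without TAE replicates 1, 2 and 3 and 890, 1034 and 713 without HCC replicates 1, 2 and 3. The 2 members that passed became 1 with limma on log2(FPKM + 1), where Bcl2l11 missed (adjusted p = 0.0535), and 4 with sample weights, which added Pmaip1 and Bcl2, and were 0 to 3 without 1 library. From the pathway and further family lists 1 gene passed, against 2 with total count scaling, 5 with DESeq2, 2 with either limma pseudocount and 23 with sample weights, and 0 to 17 without 1 library. Correlations of same-numbered deviations were 0.10, -0.21 and 0.03, beside -0.19 to 0.16 for libraries of unlike number. They showed no pairing by replicate number, but deviations from means of 3 libraries cannot exclude one. The fit with a replicate block called 0 genes, 0 members and 0 list genes (2984 genes at an unadjusted p under 0.05).

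Bcl2a1 and Bcl2l11 kept a positive log2 change in every alternative run. Bid, at -0.02, turned to 0.019 with upper quartile scaling, 0.057 with total count scaling, and 0.0078 and 0.0072 with limma at pseudocounts 1 and 0.1, and ranged from -0.22 to 0.11 without 1 library (DESeq2 gave 0.048, 0.084 and 0.014 without TAE replicate 1, TAE replicate 3 and HCC replicate 2). Bax turned to -0.011 with sample weights. Bcl2 ranged from -0.13 (DESeq2; -0.12 with edgeR) to 0.70 without 1 library. The mean log2 difference of Bax to Bcl2 was -0.13, and -0.58 to 0.38 without 1 library, and that of Bcl2a1 to Ptprc was 0.12, and -0.035 to 0.22. The causes of these changes were not tested, and fits without 1 library also rest on fewer samples. Depth limits Bcl2, with 21 to 60 counts per library, most.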
